A study of Homo sapiens with 2 samples.

Results

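The genes of cholesterol and fatty acid synthesis were compared between VHL-restored cells and 786-O, human renal cell carcinoma cells labelled as having and lacking a working VHL gene. The set was a list of 36 pathway genes, found as probe sets annotated to exactly 1 of the member symbols, out of 19775 genes named that way on the array. Of these, 32 had such a probe set and all 32 were above the floor used here, an intensity of 22.3, which is the median of all values of both arrays. A probe set counted as above the floor, and a gene as measured, where the higher of its values on the 2 arrays passed it. CYP51A1, the sterol demethylase gene, and FADS1, the delta-5 desaturase gene, were represented only by probe sets annotated to several genes, and FDFT1, the squalene synthase gene, and ACSL3, an acyl-CoA synthetase gene, by none with a gene name in the annotation used here, so these 4 were not analysed here.

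The VHL-restored line is, going by its label, a derivative of 786-O that was given a functional VHL allele, and 786-O, a clear-cell kidney cancer line, carries a mutated one. Each line was measured with 1 Affymetrix array of biotin-labelled total RNA. The title places the arrays in a study of EMCV, a picornavirus, but the labels name no infection, treatment, time or passage for either sample, and do not say how the allele was introduced or whether the derived line is 1 clone. With 1 array per line no test, error or p-value was possible, and every difference below compares 2 arrays and not the conditions.

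VHL recognises HIF alpha subunits for a ubiquitin ligase, which leads to their degradation, and clear-cell kidney cancer, in which VHL is usually lost, is known for cells filled with cholesterol esters and triglycerides. Cholesterol is built from acetyl-CoA through mevalonate, isoprenoids, squalene and a series of ring modifications, and fatty acids are built from the same acetyl-CoA by carboxylation, chain building, elongation and desaturation. Both arms are switched on by SREBP transcription factors, which INSIG proteins hold in the endoplasmic reticulum when sterols are plentiful.

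Each array gave 54613 probe sets, with a median intensity of 22.6 for VHL-restored cells and 21.97 for 786-O. VHL itself was at 15.96 in VHL-restored cells and 28.9 in 786-O on its brighter probe set, and at 7.96 in VHL-restored cells and 6.32 in 786-O on the other. The brighter probe set was above the floor in 786-O only and was thus lower on the VHL-restored array, a difference of -0.49 on the log2(intensity + 16) scale that runs opposite to the label. Both levels were too near the floor to check the labels, so "VHL-restored" stands throughout for the array labelled that way, and every direction given here is that of the labels. Of 11 markers of renal epithelium, 8 were measured, 5 of them higher and 3 lower on the VHL-restored array, with a median difference of 0.07 on the same scale. They ranged from EPCAM, at 242 in VHL-restored cells and 171 in 786-O, to PAX8, at 1068 in VHL-restored cells and 1521 in 786-O, and the proximal tubule receptors LRP2 and CUBN were below the floor on both. Adipocyte markers had 3 of 6 measured, PLIN1, CIDEC and LIPE, the brightest being CIDEC at 34.4 in VHL-restored cells and 32.6 in 786-O, and summed to 119.0 in VHL-restored cells and 120.1 in 786-O, with ADIPOQ, LEP and FABP4 under 10 on both. Hepatocyte markers had 3 of 6 measured and summed to 1188 in VHL-restored cells and 938 in 786-O, mostly from SERPINA1, with ALB under 10 on both. Leukocyte markers had 1 of 5 measured, LAPTM5, at 292 in VHL-restored cells and 25.9 in 786-O, a difference of 2.88, and summed to 338 in VHL-restored cells and 70.5 in 786-O, with PTPRC, CD14 and CD3E below the floor on both. Fibroblast markers had 2 of 4 measured, which went opposite ways. LUM, above the floor on the VHL-restored array only, was at 37.1 in VHL-restored cells and 5.64 in 786-O, a difference of 1.30, and COL1A1 at 79.9 in VHL-restored cells and 94.8 in 786-O, a difference of -0.21, and the list summed to 151 in VHL-restored cells and 130.3 in 786-O. Endothelial markers had 2 of 4 measured, both higher on the VHL-restored array, and summed to 79.8 in VHL-restored cells and 62.9 in 786-O. The part of these markers in the results below was not tested.

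Each difference is log2(intensity + 16) in VHL-restored cells less that in 786-O, so that positive means higher in VHL-restored cells. Folds use the same scale and come out too small for dim genes. A gene is given by its brightest probe set by mean log2 value, and its other probe sets above the floor are the only measure of spread. Over 6436 genes with several such probe sets their SD within a gene was 0.33, a spread of probes that says nothing of the spread between cultures. In RNA from a whole culture, fewer cells of a type and less RNA per cell cannot be told apart.

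Most members, like most measured genes, differed little between the 2 arrays. Of the 32 measured members 20 were higher on the VHL-restored array and 12 lower, with a median difference of 0.09, and over all 13291 measured genes 56.8% were higher and the median was 0.05. The differences of 27 members were within 0.5 of 0, and those of 18 within 0.25. The SD of the differences was 0.41 over the measured members and 0.45 over all measured genes, so small differences were not particular to the members. EBP alone (3.12% of the measured members) was at least 2-fold higher and no member was at least 2-fold lower, against 1.54% and 2.18% of all measured genes. The EBP probe set was picked as brightest only through its value on the VHL-restored array, as described below. At least 1.5-fold, 5 members (15.6%) were higher, namely EBP, SCD, FADS2, SQLE and MSMO1, and none lower, against 6.25% and 6.55% of all measured genes. These 5 members encode 3 enzymes of the squalene-to-cholesterol steps and 2 fatty acid desaturases, and shares over so few genes are only descriptions.

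**Figure D1:**
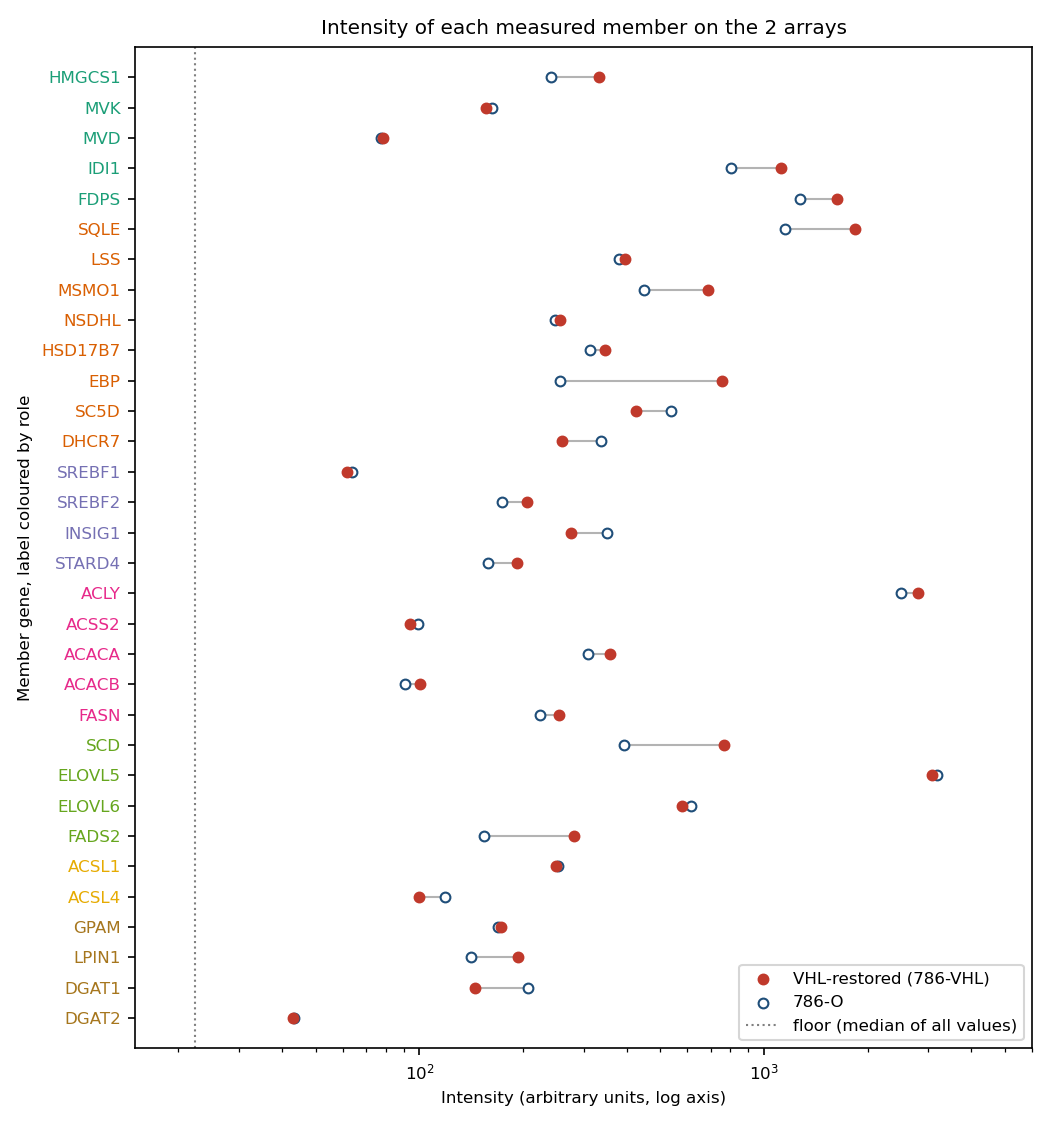
Intensity of each measured member on its brightest probe set, in arbitrary units on a log axis, with the VHL-restored line as filled and 786-O as open points and gene labels coloured by role. The members span from DGAT2, at 43.0 in VHL-restored cells and 43.2 in 786-O, to ELOVL5, at 3085 in VHL-restored cells and 3178 in 786-O, and the longest lines join the points of EBP, SCD and FADS2.

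The promoters of 4 members are shown, picked from a larger number whose values are described below and that have a single annotated start. SCD, MSMO1 and EBP were at least 1.5-fold higher on the VHL-restored array, and SREBF2 encodes the regulator of the sterol arm. Each sequence is the 250 bases before the annotated start on the plus strand, from RefSeq on GRCh38.p14, at chr10:100346983-100347232 for SCD, chr4:165327419-165327668 for MSMO1, chrX:48521558-48521807 for EBP and chr22:41832855-41833104 for SREBF2. Capitals mark the CCAAT box (CCAAT or its reverse complement ATTGG), the motif of NF-Y, a known partner of SREBP, and the sterol regulatory element core TCACNCCAC on either strand.
SCD: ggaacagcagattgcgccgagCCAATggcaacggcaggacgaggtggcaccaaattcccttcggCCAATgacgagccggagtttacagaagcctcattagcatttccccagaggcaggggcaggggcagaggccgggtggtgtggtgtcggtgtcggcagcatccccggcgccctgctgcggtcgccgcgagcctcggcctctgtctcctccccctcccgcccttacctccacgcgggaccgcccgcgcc
MSMO1: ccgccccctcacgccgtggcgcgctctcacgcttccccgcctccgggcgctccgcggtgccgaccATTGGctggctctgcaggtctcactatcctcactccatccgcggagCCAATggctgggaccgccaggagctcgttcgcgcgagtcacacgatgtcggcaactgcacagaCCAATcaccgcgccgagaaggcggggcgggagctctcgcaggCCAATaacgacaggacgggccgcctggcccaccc
EBP: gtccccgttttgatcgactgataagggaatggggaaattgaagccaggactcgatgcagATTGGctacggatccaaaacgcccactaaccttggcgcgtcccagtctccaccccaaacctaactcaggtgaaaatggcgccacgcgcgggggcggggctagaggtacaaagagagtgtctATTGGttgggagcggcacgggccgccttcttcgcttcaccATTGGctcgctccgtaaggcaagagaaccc
SREBF2: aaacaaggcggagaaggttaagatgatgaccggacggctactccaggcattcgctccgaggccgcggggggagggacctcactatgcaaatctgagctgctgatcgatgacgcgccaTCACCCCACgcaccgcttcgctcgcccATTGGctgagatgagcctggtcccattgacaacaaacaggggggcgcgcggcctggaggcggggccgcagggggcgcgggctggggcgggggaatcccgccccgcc
SCD held 2 CCAAT boxes, MSMO1 4, EBP 3 and SREBF2 1, and of these 4 windows SREBF2 alone held the sterol element core. Among members not shown, MVK and NSDHL held 5 CCAAT boxes each and differed by -0.05 and 0.05. FADS2, at least 1.5-fold higher, held none. Any relation of the boxes to the differences was not tested.

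Windows of that length were annotated for 28 of the 32 measured members, 45 windows in all, and motifs were searched on both strands. The CCAAT box was in 26 of the 45 windows (57.8%) and in 32.0% of all 35116 windows in the table. The GC box GGGCGG was in 35 of 45 (77.8%) and in 42.6% of all windows. The sterol element core was in 2 of 45 (4.44%), that of SREBF2 and 1 of the 5 windows of ACSL1, and in 0.883% of all windows. The E-box CACGTG was in 4 of 45 (8.89%) and in 6.34% of all, and ACGTG, the core of the HIF response element, which lies within that E-box, was in 9 of 45 (20%) and in 18.5% of all. All windows together covered 27305 genes, measured here or not, whereas the member windows were of measured genes only. The compared sets are thus unlike, and the shares do not show a trait particular to the members. Windows of the same gene can overlap, so these shares are descriptions of the sequences.

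The first steps of the sterol arm, from HMG-CoA to the isoprenoids, had 4 of 5 measured members higher on the VHL-restored array and a median difference of 0.35. FDPS, which joins isoprenoid units into farnesyl diphosphate, was at 1631 in VHL-restored cells and 1275 in 786-O, a difference of 0.35 on its single probe set. IDI1, which interconverts the 2 isoprenoid building units, was at 1121 in VHL-restored cells and 805 in 786-O, a difference of 0.47. Its other probe sets above the floor differed by 0.44 and 0.35, so all 3 were higher in VHL-restored cells, but all carry the suffix _x_at, which marks probes that may also match other transcripts. HMGCS1, which makes HMG-CoA, was at 332 in VHL-restored cells and 241 in 786-O on its brightest probe set, a difference of 0.44, and at 170 in VHL-restored cells and 319 in 786-O on the other, a difference of -0.85. Its direction therefore depended on the probe set, and their median was -0.21. The count of 4 and the median of 0.35 above rest on its brightest probe set. Both would be lower with HMGCS1 given by the other probe set or by that median. The kinase gene MVK differed by -0.05, its 4 probe sets lying between -0.16 and 0.13, and the decarboxylase gene MVD by 0.02, at 78.7 in VHL-restored cells and 77.5 in 786-O.

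From squalene to cholesterol, 6 of 8 measured members were higher on the VHL-restored array, with a median of 0.10. EBP, the sterol delta8-delta7 isomerase, had the largest difference of all members, at 757 in VHL-restored cells and 256 in 786-O, 2.84-fold higher in VHL-restored cells. Its 3 other probe sets did not approach that size. They were at 430.4 against 331, at 389 against 377 and at 50.9 against 44.0 in VHL-restored cells and 786-O, differences of 0.36, 0.04 and 0.16, so all 4 were higher in VHL-restored cells but only 1 was past 1.5-fold. On the 786-O array alone that probe set, at 256, was dimmer than those at 331 and 377. It was thus the brightest by mean only through its value on the VHL-restored array.

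SQLE, the squalene epoxidase that is a rate-controlling step of the arm, was at 1844 in VHL-restored cells and 1151 in 786-O, 1.59-fold higher in VHL-restored cells. A second probe set was at 562 in VHL-restored cells and 291 in 786-O, a difference of 0.91, and the third at 263 in VHL-restored cells and 283 in 786-O, a difference of -0.10. MSMO1, which removes methyl groups from the sterol ring, was at 687 in VHL-restored cells and 450.1 in 786-O on its single probe set, 1.51-fold higher in VHL-restored cells and just past the 1.5-fold size. After removal of the trend of the difference with brightness, SQLE differed by 0.56 and MSMO1 by 0.56, both under the 1.5-fold size of 0.58.

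The next enzymes of the ring were close to equal on their brightest probe sets. LSS, which closes the first sterol ring system, was at 395 in VHL-restored cells and 380.3 in 786-O, a difference of 0.05, but a second probe set was at 61.6 in VHL-restored cells and 143 in 786-O, a difference of -1.03, and the third differed by -0.16. NSDHL, a decarboxylating dehydrogenase, was at 256 in VHL-restored cells and 247 in 786-O and differed by 0.05, and its other probe set by -0.00. HSD17B7, the keto-reductase that acts after it, differed by 0.14 on a single probe set, at 346 in VHL-restored cells and 312 in 786-O, whose suffix _x_at marks possible matches to other transcripts. The last enzymes went the other way. SC5D, the lathosterol desaturase, was at 425 in VHL-restored cells and 539 in 786-O, a difference of -0.33, and DHCR7, which makes cholesterol from 7-dehydrocholesterol, was at 260.3 in VHL-restored cells and 337 in 786-O, a difference of -0.35, with its other probe set at -0.20.

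**Figure D2:**
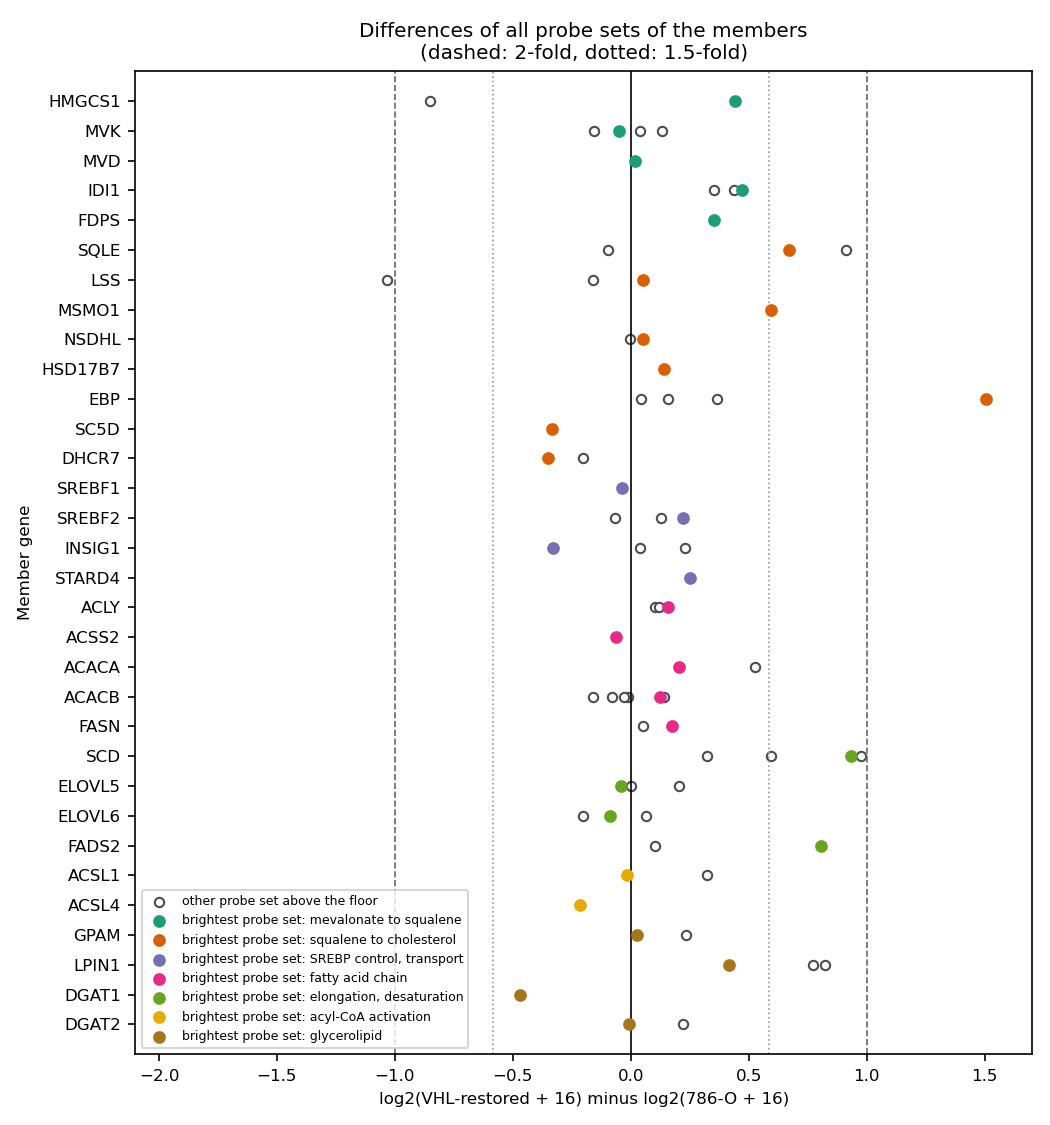
Differences of every probe set above the floor for each member, on the log2(intensity + 16) scale, with the brightest probe set filled and coloured by role and the others open; dashed lines mark 2-fold and dotted lines 1.5-fold. Probe sets of SCD and LPIN1 all lie right of 0, those of HMGCS1 and LSS fall on both sides, and the filled point of EBP at 1.51 stands away from its other 3.

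The regulators of the pathway showed small differences. SREBF2, which encodes SREBP-2, the activator of the sterol arm, was at 206 in VHL-restored cells and 174 in 786-O, a difference of 0.22, with its other probe sets at -0.07 and 0.13. SREBF1, which encodes SREBP-1, the activator of the fatty acid arm, was at 61.7 in VHL-restored cells and 63.7 in 786-O, a difference of -0.04. INSIG1, itself a well-known SREBP target, was at 276 in VHL-restored cells and 351 in 786-O, a difference of -0.33, at 266 in VHL-restored cells and 258 in 786-O on its second probe set, a difference of 0.04, and at 121 in VHL-restored cells and 101 in 786-O on the third, a difference of 0.23. Its direction was thus not shared by its 3 probe sets. STARD4, a carrier that moves sterols between membranes, was at 191 in VHL-restored cells and 158 in 786-O and differed by 0.25.

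Fatty acid chain building was near even, with 4 of 5 measured members higher on the VHL-restored array, a median of 0.16 and no difference beyond 0.21. ACLY, which makes cytosolic acetyl-CoA from citrate, was at 2793 in VHL-restored cells and 2502 in 786-O on the brightest of its 3 probe sets. They differed by 0.16, 0.12 and 0.10, a narrow spread in 1 direction. ACACA, the acetyl-CoA carboxylase of lipid synthesis, was at 357 in VHL-restored cells and 308 in 786-O, a difference of 0.21, and a dimmer probe set differed by 0.53. FASN, the fatty acid synthase, was at 254 in VHL-restored cells and 224 in 786-O, a difference of 0.17. ACACB, the carboxylase isoform at mitochondria, differed by 0.12, its 6 probe sets lying between -0.16 and 0.14, and ACSS2, which makes acetyl-CoA from acetate, was at 94.0 in VHL-restored cells and 98.8 in 786-O, a difference of -0.06.

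Of the members that desaturate or elongate fatty acids, SCD and FADS2 were at least 1.5-fold higher on the VHL-restored array, and ELOVL5 and ELOVL6 were near even. SCD, the delta-9 desaturase that makes oleate, was at 765 in VHL-restored cells and 393 in 786-O, 1.91-fold higher in VHL-restored cells. Its other 3 probe sets were at 502 against 248, at 168 against 131 and at 161 against 101 in VHL-restored cells and 786-O, differences of 0.97, 0.32 and 0.59. All 4 were higher in VHL-restored cells, and 3 of them by at least 1.5-fold. All 4 carry the suffix _s_at or _x_at, so SCD has no value when suffixed probe sets are left out. FADS2, the delta-6 desaturase of polyunsaturated fatty acids, was at 281 in VHL-restored cells and 154 in 786-O, 1.75-fold higher in VHL-restored cells, but its dim second probe set, at 29.96 in VHL-restored cells and 26.8 in 786-O, differed by 0.10. ELOVL5, which elongates polyunsaturated chains, was at 3085 in VHL-restored cells and 3178 in 786-O, a difference of -0.04, and ELOVL6, which elongates palmitate, was at 577 in VHL-restored cells and 614 in 786-O, a difference of -0.09. Their other probe sets above the floor lay between -0.20 and 0.20. Some related genes outside the member list, named after their values were seen, went the other way. FADS3, a desaturase-family gene, was at 443 in VHL-restored cells and 599 in 786-O, a difference of -0.42, with its other probe set at -0.37. SCD5, a second delta-9 desaturase, was at 116 in VHL-restored cells and 152 in 786-O, a difference of -0.35, with its dim second probe set above the floor at -0.03. The elongase ELOVL7 was at 133 in VHL-restored cells and 219 in 786-O, a difference of -0.66. HSD17B12, a further gene of fatty acid elongation, was also lower, at 1152 in VHL-restored cells and 1429 in 786-O. It differed by -0.31, with its dim second probe set above the floor at -0.48. The other elongation genes named here were higher or near even. HACD3 differed by 0.29 and was higher in VHL-restored cells on all its probe sets. HACD2 differed by -0.04, TECR by -0.02 and ELOVL2 by -0.03.

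Among enzymes that activate fatty acids to their CoA esters, ACSL1 was at 249 in VHL-restored cells and 252 in 786-O, a difference of -0.01, with its other probe set at 0.32. ACSL4, which prefers arachidonate and was represented by 1 probe set above the floor, was at 100.004 in VHL-restored cells and 119 in 786-O, a difference of -0.22.

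In glycerolipid synthesis 2 of 4 members were higher and 2 lower on the VHL-restored array, with a median of 0.01. LPIN1, the phosphatidate phosphatase lipin-1, was at 193 in VHL-restored cells and 141 in 786-O on its brightest probe set, a difference of 0.42. The others were at 203 against 112 and at 60.2 against 27.1 in VHL-restored cells and 786-O, differences of 0.77 and 0.82. All 3 were thus higher in VHL-restored cells, and 2 of them by at least 1.5-fold. DGAT1, which adds the last acyl chain of triglyceride, was at 145 in VHL-restored cells and 207 in 786-O on its single probe set, a difference of -0.47 and the lowest of all members. DGAT2, an unrelated enzyme of the same reaction, was at 43.0 in VHL-restored cells and 43.2 in 786-O, a difference of -0.01, and GPAM, the mitochondrial acyltransferase of the first step, was at 173 in VHL-restored cells and 170 in 786-O, a difference of 0.03.

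**Figure D3:**
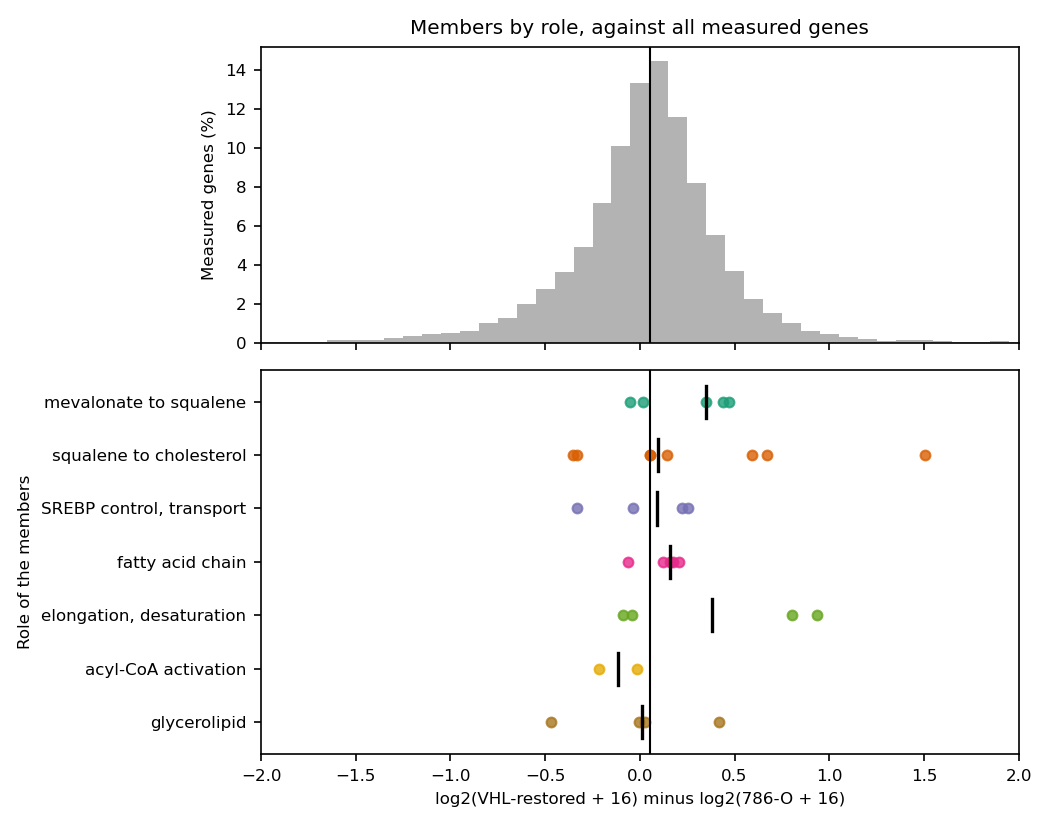
Above, the share of all 13291 measured genes by difference on the log2(intensity + 16) scale, with genes beyond 2 in either direction outside the axis; below, the members by role on the same axis, with a short bar at each role's median. The long line marks the median of all measured genes, 0.05, and the bars run from -0.12 for acyl-CoA activation to 0.38 for elongation and desaturation.

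Probe sets of a member often disagreed in sign, as did those of many other genes. Of 22 members with several probe sets above the floor, 9 had all of them higher on the VHL-restored array, 1 had all of them lower and 12 were mixed, so 45.5% were on 1 side. Over all 6436 such genes 55.8% were on 1 side and 31.6% had all probe sets higher. Mixed goes by sign alone and takes in small spans, such as -0.004 to 0.05 for NSDHL and -0.006 to 0.22 for DGAT2. The members with all probe sets higher were IDI1, EBP, ACLY, ACACA, FASN, SCD, FADS2, GPAM and LPIN1, and DHCR7 was the member with both lower. Of the 73 probe sets of members above the floor, 10 were at least 1.5-fold higher, from EBP, FADS2, LPIN1, MSMO1, SCD and SQLE, and 2 at least 1.5-fold lower, from HMGCS1 and LSS, against 6.25% and 7.91% of all 24414 probe sets above the floor. In 4 members, HMGCS1, SQLE, LSS and EBP, the probe sets spanned at least 1 log2 unit, about the size of the largest differences in the set. This span was not counted over all genes, so it cannot be called particular to the members.

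The sterol and fatty acid arms were summed up by their medians. Over 13 measured sterol enzymes the median was 0.14, with 10 higher and 3 lower on the VHL-restored array, and over 15 members of fatty acid and glycerolipid synthesis it was 0.03, with 8 higher and 7 lower. The sterol median was 0.024 when each gene was given by the median over its probe sets, and 0.40 over the 8 genes left without probe sets that end in _s_at, _x_at or _a_at. The fatty acid median under the same settings was 0.11 and 0.06.

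Genes around the pathway were read from a list of 85 others, of which 64 were measured. In sterol handling, 11 of 21 measured genes were higher on the VHL-restored array and 10 lower, with a median of 0.03. None was at least 1.5-fold apart on its brightest probe set. Dimmer probe sets of ABCA1 and ERLIN2 were past that size in the higher direction, at 1.12 and 0.65. Those of GGPS1, at -0.87, and SOAT1, at -0.59 and -0.82, were past it in the lower direction. Of 24 other genes of fatty acid and glycerolipid synthesis, 10 were higher and 14 lower, the median was -0.03, and 3 were at least 1.5-fold higher and 2 at least 1.5-fold lower. Of 19 genes of lipid storage and use, 10 were higher and 9 lower, the median was 0.05, and 2 were at least 1.5-fold higher and 1 lower.

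The largest difference among them was in ABHD5, the activator of the triglyceride lipase of lipid droplets, at 264 in VHL-restored cells and 122 in 786-O, 2.03-fold higher in VHL-restored cells, with dimmer probe sets at 0.42 and 0.24. LIPA, the lysosomal acid lipase, was at 938 in VHL-restored cells and 580.2 in 786-O, and ME1, malic enzyme, a source of NADPH for fatty acid synthesis, at 1141 in VHL-restored cells and 719 in 786-O. These differed by 0.68 and 0.65, but a second probe set of ME1 differed by only 0.31. OXSM, the ketoacyl synthase of mitochondrial fatty acid synthesis, differed by 0.85 and MID1IP1, which promotes polymerisation of acetyl-CoA carboxylase, by 0.71. MID1IP1 was dim, at 57.2 in VHL-restored cells and 28.9 in 786-O, the latter near the floor. In the other direction MGLL, the monoglyceride lipase, was at 529 in VHL-restored cells and 866 in 786-O, a difference of -0.69, and its other probe set differed by -0.71. ELOVL7, described above, differed by -0.66 and AGPAT5, an acyltransferase that makes phosphatidate, by -0.59, with a dim second probe set at 0.12.

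**Figure D4:**
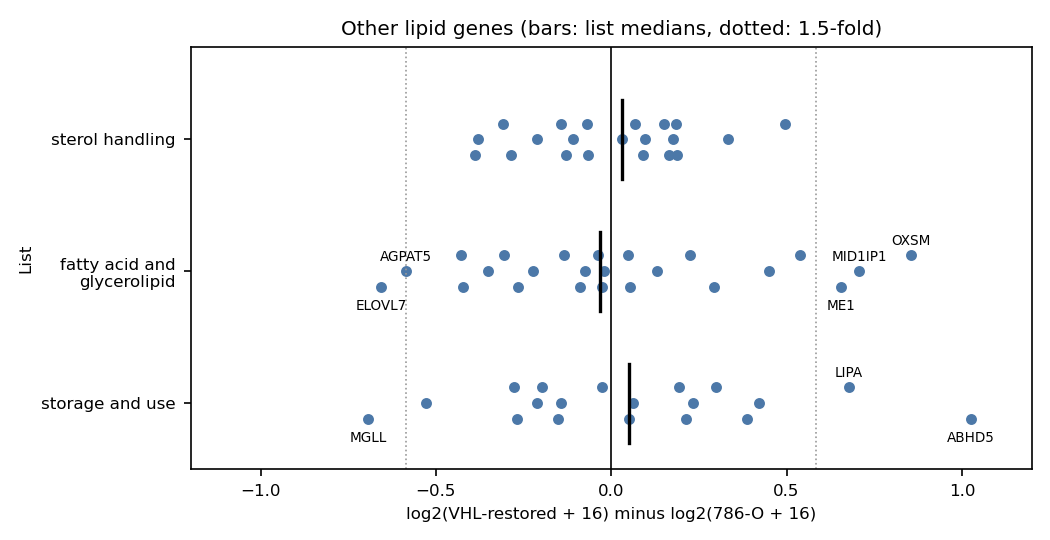
Differences of 64 other lipid genes on the log2(intensity + 16) scale, in 3 lists, each point a gene on its brightest probe set, spread vertically only for legibility. The 8 labelled genes are those beyond the dotted 1.5-fold lines, from ABHD5 at 1.02 to MGLL at -0.69, and the list medians lie between -0.03 and 0.05.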

How the data were processed

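Per the labels' protocols, total RNA of the VHL-restored line and of 786-O was isolated with Trizol and labelled for Affymetrix arrays. The authors deposited 1 intensity per probe set and array on a linear scale, as the range of the values shows. The submitters' processing notes name R 2.10 and no other tool; the sources used here do not give the background correction, normalization or probe summary, any of which could compress differences. In the deposited intensities, 2127 probe sets had the identical value on both arrays. A platform annotation paired 41091 probe sets with 1 gene, 1801 with several and left 11721 unnamed here; symbols were updated by Entrez number for 41037.

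Values were taken as log2(intensity + 16), the brightest probe set stood for a gene, and genes with the higher of both values above the pooled median counted as measured. A test was not possible with 1 array per line; sizes of 2-fold and 1.5-fold describe differences. All measured members were named, and of the other lipid genes the 8 largest at least 1.5-fold apart. FADS3, SCD5, HSD17B12, HACD2, HACD3, TECR, ELOVL2, GGPS1, ERLIN2 and genes in the closing observations were chosen after their values were seen. Members and lists were chosen with earlier results of these data known. Of 85 other lipid genes, 74 had a single-gene probe set here. The procedure was tested on simulated data, in which all probe sets of a gene were given the same change. Probe sets that disagree, as many did here, were therefore not covered by it. The number of arrays limits the precision. Software was Python 3.11.15 with numpy 2.4.6, pandas 2.3.3 and matplotlib 3.10.9.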

Additional observations from a re-analysis of the deposited data

How the results depend on the processing

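No paired analysis was possible because there was only 1 array of each line, and leaving out a replicate was likewise impossible. Under 8 other settings 233 of 239 values of single members moved by less than the SD between probe sets and 230 kept their sign. Of 39 values of the 5 members at least 1.5-fold higher all stayed positive and 32 stayed past 1.5-fold. Part of this agreement was fixed in advance. Settings that change only the floor cannot move a member's value. The median over probe sets cannot move a member with 1 probe set, nor leaving out suffixed ones a member whose brightest has no suffix. EBP differed by 0.26 over the median of probe sets and by 0.04 without its brightest one, so that with either setting 0 members, and 0 sterol genes, were at least 2-fold higher. FADS2 differed by 0.45 over the median of probe sets and 0.10 without suffixed ones, LPIN1 by 0.77 and INSIG1 by 0.04 over the median. At 1.5-fold, 5 members (3 sterol, 2 fatty acid) and 831 of all genes were higher and 871 lower. Raising the pseudocount to 64 left 109 genes at least 2-fold higher and 146 lower. A floor at the 75th percentile gave a median of 0.16 over all members and 0.25 over sterol genes. Over the median of probe sets the sterol median was 0.024 and the fatty acid median 0.11. Without suffixed probe sets 20 members were left, 13 of them higher (6 of 8 sterol, 5 of 8 fatty acid genes), and the sterol median was 0.40. Leaving out genes with probe sets on both sides of 0 gave medians of 0.17 over all members, 0.25 over sterol genes, with 6 higher, and 0.17 over fatty acid genes. This setting and the one without the brightest EBP probe set were chosen after seeing the data. Causes were otherwise not tested, and intensities near the floor limit dim probe sets.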

Other observations

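Some genes of lipid storage and export are given here, named after their values were seen, and they do not stand for their lists. Of the measured genes of lipid storage and use, 10 were higher and 9 lower on the VHL-restored array, with a median of 0.05. G0S2 and ABHD5, for example, were higher, by 0.30 and 1.02. SOAT1, which esterifies cholesterol for storage in droplets, was at 585 in VHL-restored cells and 680.0 in 786-O on its brightest probe set, at 341 in VHL-restored cells and 522 in 786-O on the second and at 86.9 in VHL-restored cells and 166 in 786-O on the third. Its differences were -0.21, -0.59 and -0.82, so all 3 probe sets were lower on the VHL-restored array. HILPDA, a droplet protein gene known as a HIF target, was at 119 in VHL-restored cells and 179 in 786-O and differed by -0.53, with its other probe set at -0.48. PLIN2, which encodes the main coat protein of droplets in many cells, was at 1335 in VHL-restored cells and 1550.05 in 786-O. It differed by -0.21 on its only probe set above the floor. ABCA1, which exports cholesterol from cells, was at 149 in VHL-restored cells and 138 in 786-O on its brightest probe set, a difference of 0.10, and at 119 in VHL-restored cells and 46.4 in 786-O on the other above the floor, a difference of 1.12.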
